A study of Homo sapiens with 8 samples.

Results

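Ferritin and the iron transport genes of 2 human acute myeloid leukaemia cell lines were followed through a day of chlorprothixene. The members are 9 genes taken by symbol: the ferritin chains FTH1 and FTL, the transferrin receptor TFRC, the exporter SLC40A1, the divalent metal transporters SLC11A1 and SLC11A2, the ferritin autophagy receptor NCOA4, and the iron regulatory proteins IREB2 and ACO1. All 9 were found among 55765 gene names, and 8 of them reached the mean of 1 TPM needed for testing (14650 names did); SLC11A1 did not. Chlorprothixene, a thioxanthene antipsychotic, was given at 40 uM for 6, 12 or 24 h. NB4, an acute promyelocytic leukaemia line with the PML-RARA fusion, and Kasumi-1, a myeloblastic line with the RUNX1-RUNX1T1 fusion, each gave 1 library per time and 1 untreated library. Total RNA of cells grown in serum-supplemented medium was sequenced, and no vehicle is named. The 8 conditions have no replicate culture, and the untreated cells were not sampled at each time, so drug and time in culture cannot be told apart.

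Iron enters most cells as transferrin bound to TFRC, is moved out of the endosome by SLC11A2 (DMT1), and is stored inside a hollow ferritin shell made of heavy chains (FTH1), which oxidise iron, and light chains (FTL), which help to mineralise it. NCOA4 carries ferritin to the lysosome, where its iron is released, and SLC40A1 (ferroportin) is the known cellular iron exporter. IREB2 and ACO1 bind iron-responsive elements, hairpins in messenger RNAs, when iron is scarce: binding in a 5′ UTR blocks translation, and binding in the 3′ UTR of TFRC protects the transcript from decay. Ferritin control by iron is therefore largely translational, which transcript levels do not show, while antioxidant response factors and BACH1 act on ferritin transcription.

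The hairpins are shown because they are the feature that ties storage, export and uptake transcripts to the same sensors. The letters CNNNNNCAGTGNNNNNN were searched in the UTRs of GENCODE 29 protein-coding transcripts (GRCh38) for the members other than FTH1, requiring that the base after CAGTG is not G and that the 5 bases on either side of the loop pair, G with T allowed. FTL and SLC40A1 held 1 such site each in the 5′ UTR, and TFRC held 4 in the 3′ UTR. FTH1 was left out only because it had no entry among the RefSeq promoters used further below. The list therefore says nothing about hairpins in FTH1. The sites are written as DNA, 5′ to 3′ on the transcript's strand, and the 17 bases in capitals run from the bulged C through the stem and loop.
FTL, 5′ UTR, chr19:48965335-48965364, plus strand: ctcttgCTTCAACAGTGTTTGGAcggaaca
SLC40A1, 5′ UTR, chr2:189580660-189580689, minus strand: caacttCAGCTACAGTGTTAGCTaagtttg
TFRC, 3′ UTR, chr3:196050978-196051007, minus strand: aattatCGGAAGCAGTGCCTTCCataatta
TFRC, 3′ UTR, chr3:196050574-196050603, minus strand: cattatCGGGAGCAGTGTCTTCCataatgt
TFRC, 3′ UTR, chr3:196050509-196050538, minus strand: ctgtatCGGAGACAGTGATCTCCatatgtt
TFRC, 3′ UTR, chr3:196050462-196050491, minus strand: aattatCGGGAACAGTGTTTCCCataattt
Of 19652 protein-coding genes, 0.112% held the pattern in a 5′ UTR and 0.514% in a 3′ UTR. No site that met the letters and the pairing rule was found in the annotated UTRs of SLC11A1, SLC11A2, NCOA4, IREB2 or ACO1, which says nothing about hairpins of another form.

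Levels are the deposited TPM, in which abundance is scaled for transcript length and to one total per library. A change is log2(TPM + 1) of a treated library minus that of its line's untreated library. Tests are limma fits over all 14650 genes with Benjamini-Hochberg adjustment. The shared response (mean of the 3 times minus untreated, both lines) has p-values that measure how alike the lines were. Within a line the p-values measure the spread of the treated times, pooled over both lines, not of cultures. Leaving out a library of 1 line therefore also alters the p-values of the other line. Read totals are not in the tables; the commonest ratio of coverage to FPKM, held by 15.7% to 18.2% of genes in a library, was 7.08 to 9.83 and is the one sign of depth used. Mitochondrially encoded transcripts took 5.04% to 6.71% of TPM in NB4 cells and 7.94% to 17.1% in Kasumi-1, highest in its 24 h library. Of 8 myeloid markers, 7 in each NB4 library and 8 in each Kasumi-1 library reached 1 TPM, led by MPO. Their summed level was 6563, 4482, 3006 and 2315 TPM in NB4 cells and 18189, 21120, 15117 and 13768 TPM in Kasumi-1 cells (untreated, 6, 12 and 24 h), and whether this moved any iron gene was not tested. In every library 2 of 12 erythroid markers reached 1 TPM, summed at 6.32 to 9.49 TPM in NB4 cells and 14.9 to 21.9 TPM in Kasumi-1, with HBA1, HBB, HBG1 and AHSP among those at 0. No macrophage marker reached 1 TPM (summed at 0.476 to 1.31 TPM in NB4 cells and 0.196 to 0.528 TPM in Kasumi-1), and C1QA and C1QB were at 0 throughout. Of 6 lymphoid markers 2 or 3 reached 1 TPM, and of 6 hepatocyte and serum markers 1 or 2, led by SERPINA1 at 9.11 to 14.0 TPM in NB4 cells and 241 to 574 TPM in Kasumi-1.

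Both ferritin transcripts were more abundant after chlorprothixene in all 6 treated libraries, and FTH1 passed the test in each line. FTH1 (chr11:61727190-61735132, minus strand, hg19) had 751 TPM in untreated NB4 and 2585, 3088 and 2751 TPM after 6, 12 and 24 h. In Kasumi-1 it had 218 TPM untreated and 477, 567 and 556 TPM at the same times. Every treated library lay above the untreated one of its line, the 12 h library was the highest in each, and the level at 24 h was 1.06 times that at 6 h in NB4 and 1.17 times in Kasumi-1, so most of the gain was there by 6 h.

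The fitted change of FTH1 was 1.90 ± 0.18 (SE) in NB4 (adjusted p = 0.00810, limma) and 1.28 ± 0.18 in Kasumi-1 (adjusted p = 0.0473). FTH1 was the one member called in either line, 1 of 8 tested each time. For the background, 0.621% of all genes were called higher and 0.177% lower in NB4, and 0.205% higher and 0.109% lower in Kasumi-1. The NB4 call held when any treated library was left out. The Kasumi-1 call did not pass without the NB4 6 h (adjusted p = 0.0943), 12 h (0.134) or 24 h library (0.104), or without the Kasumi-1 6 h (0.0690) or 12 h library (0.172). Among all genes tested, 0.922%, 1.09% and 1.71% had a change at least as high as FTH1 in NB4 at 6, 12 and 24 h, and 5.02%, 2.44% and 2.27% in Kasumi-1.

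FTL (chr19:49468558-49470135, plus strand, hg19) was the most abundant member in each library. It had 2651 TPM in untreated NB4 and 4255, 5155 and 4618 TPM after 6, 12 and 24 h. Kasumi-1 had 2318 TPM untreated and 5801, 6828 and 5748 TPM after treatment, so its untreated level was close to that of NB4 and its treated levels were above those of NB4. Treated and untreated libraries did not overlap in either line, each of which has 1 untreated library. The share of all genes without overlap was not counted. Among all genes tested, 6.7%, 6.1% and 9.6% had a change at least as high as FTL in NB4 at 6, 12 and 24 h. In Kasumi-1 these shares were 3.5%, 1.8% and 2.5%. The fitted change of FTL was 0.81 ± 0.22 in NB4 (limma adjusted p = 0.153) and 1.40 ± 0.22 in Kasumi-1 (adjusted p = 0.0596), neither past the threshold of 0.05. Without the Kasumi-1 24 h library the change in Kasumi-1 was 1.44 (adjusted p = 0.0366). Leaving out any other treated library raised the adjusted p, to 0.0964 to 0.172. Among all genes, FTL ranked 37 by TPM in untreated NB4 and 16, 9 and 13 after treatment, and 43 in untreated Kasumi-1 and 11, 13 and 14 after treatment.

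**Figure D1:**
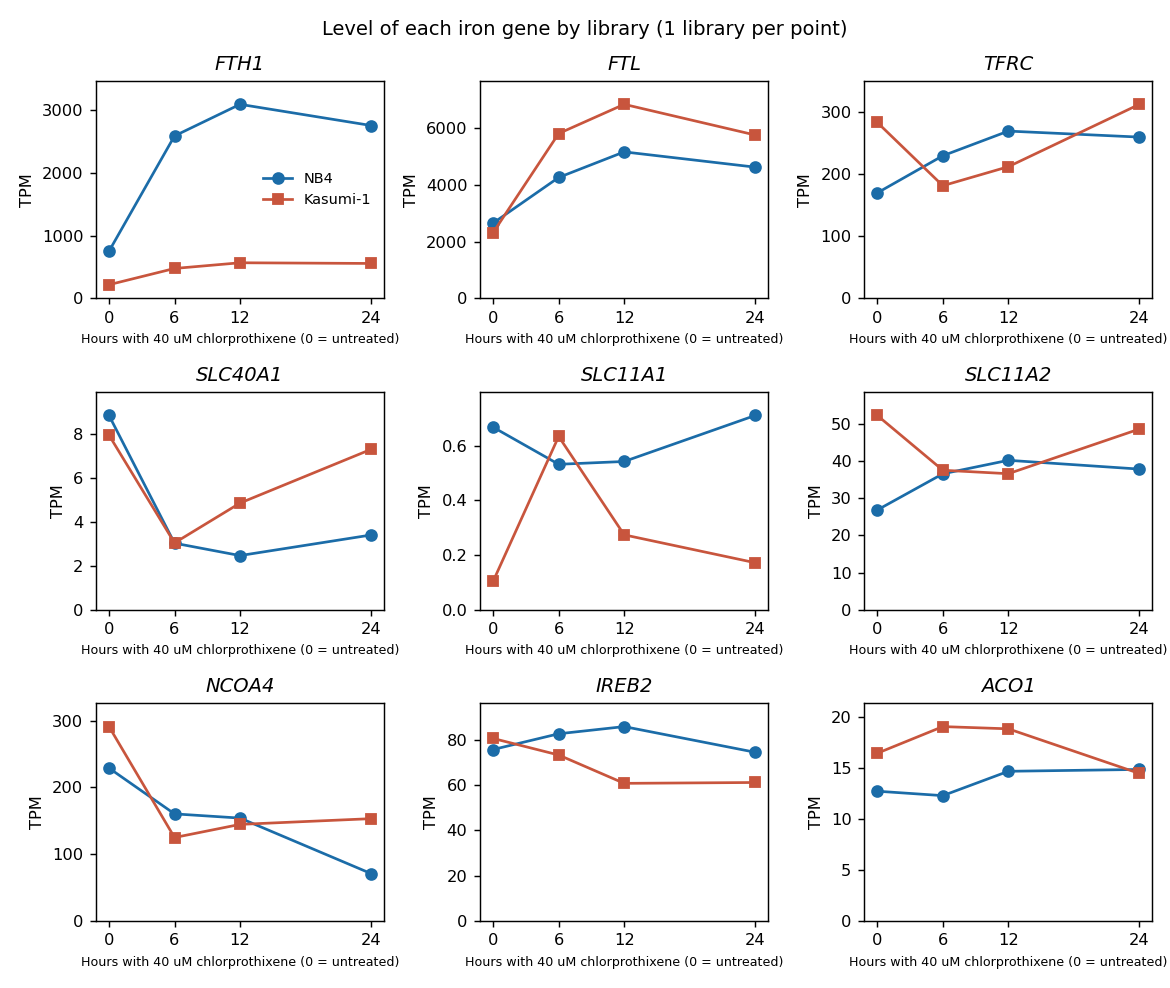
TPM of each iron gene (vertical axis, from 0) against hours with 40 uM chlorprothixene (0 is untreated), with NB4 as circles and Kasumi-1 as squares and 1 library per point. FTH1 and FTL lie above their untreated level at every treated time in both lines, FTH1 is higher in NB4 throughout, and SLC11A1 stays under 1 TPM.

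The balance of the chains differed between the lines and, in NB4, between treated and untreated cells. FTL held 3.53 times the TPM of FTH1 in untreated NB4, and 1.65, 1.67 and 1.68 times after 6, 12 and 24 h, so heavy chain transcripts took 37.8%, 37.5% and 37.3% of the pair in treated NB4, against 22.1% in untreated NB4. In Kasumi-1 the ratio was 10.6 untreated and 12.2, 12.0 and 10.3 after treatment, with the heavy chain at 7.59% to 8.82% of the pair in treated and 8.60% in untreated cells. The summed pair was nevertheless alike in scale: 6840, 8243 and 7369 TPM in treated and 3402 TPM in untreated NB4, and 6278, 7395 and 6305 TPM in treated and 2536 TPM in untreated Kasumi-1. Per library this was 0.684% to 0.824% of all TPM in treated and 0.340% in untreated NB4, and 0.628% to 0.740% in treated and 0.254% in untreated Kasumi-1. These ratios have no test, since each rests on 1 library, and their size depends on the measure. By mean coverage, FTL had 10208.5 reads per base and FTH1 941 in untreated NB4, and 15443.8 and 2978 at 6 h. Untreated Kasumi-1 had 7875 and 236. The excess of FTL over FTH1 was larger by coverage than by TPM. By both measures it was smaller in treated than in untreated NB4.

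FTH1 and FTL have many processed copies in the genome, whose reads can be split with the parent. The 25 listed FTH1 copies summed to 2.20% to 3.48% of FTH1, and the 16 listed FTL copies to 0.0720% to 0.174% of FTL. Adding them to the parents, a choice made after seeing the data, left FTH1 at 1.27 in Kasumi-1 (limma adjusted p = 0.0481). BEST1, a bestrophin channel gene, overlaps FTH1 on the opposite strand and had 8.39, 21.0, 28.98 and 23.7 TPM in NB4 cells and 2.54, 5.78, 7.76 and 7.74 TPM in Kasumi-1 cells (untreated, 6, 12 and 24 h). Counting by strand is not given in the sources used here, so reads of BEST1 and FTH1 cannot be told apart.

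**Figure D2:**
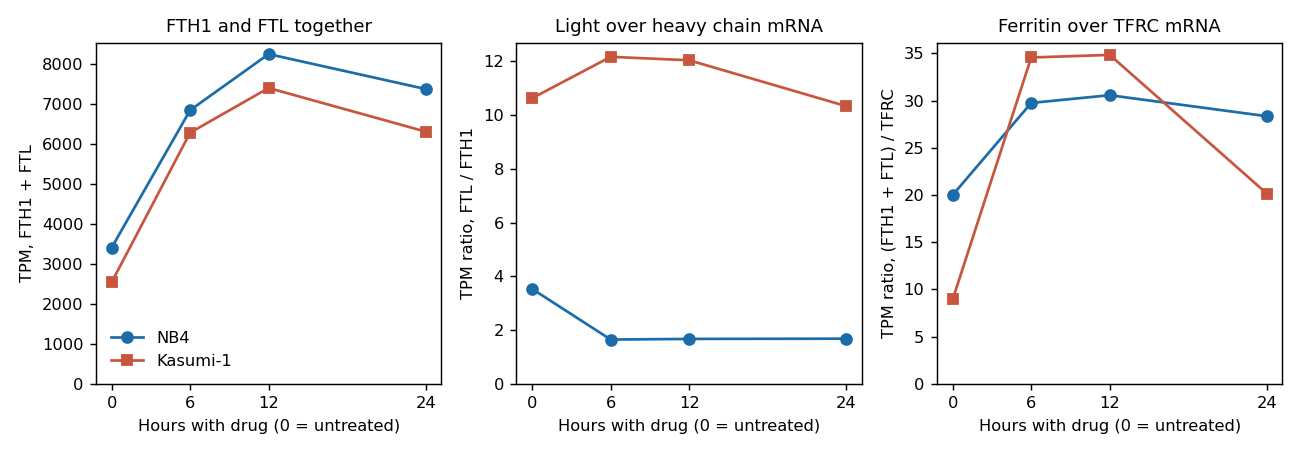
Summed TPM of FTH1 and FTL, the ratio of FTL to FTH1, and the ratio of the pair to TFRC, against hours with drug (0 is untreated), with 1 library per point. The pair is higher in every treated library, while the light to heavy chain ratio is 1.65 to 1.68 in treated and 3.53 in untreated NB4 and lies between 10.3 and 12.2 in Kasumi-1.

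NCOA4, which delivers ferritin to autophagosomes, was lower in all 6 treated libraries and did not pass the test in either line. NCOA4 (chr10:51565108-51590734, plus strand, hg19) had 229 TPM in untreated NB4 and 160, 154 and 70.6 TPM after 6, 12 and 24 h. In Kasumi-1 it had 291 TPM untreated and 125, 144 and 153 TPM after treatment. All treated libraries were under the untreated one, but the lines differed in course: the NB4 level at 24 h was 0.441 times that at 6 h, and the Kasumi-1 level was 1.23 times. The fitted change was -0.92 ± 0.42 in NB4 (limma adjusted p = 0.357) and -1.05 ± 0.42 in Kasumi-1 (adjusted p = 0.219). Without the NB4 24 h library the change in NB4 was -0.54. The share of all tested genes with a change as low as that of NCOA4 or lower was 11.2%, 9.75% and 0.450% in NB4 at 6, 12 and 24 h, and 1.74%, 3.43% and 5.07% at the same times in Kasumi-1.

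The uptake genes TFRC and SLC11A2 were higher in all 3 treated NB4 libraries, and in Kasumi-1 lower at 6 and 12 h. TFRC (chr3:195754054-195809060, minus strand, hg19) had 170 TPM in untreated NB4 and 230, 270 and 260 TPM after 6, 12 and 24 h. In Kasumi-1 it had 284 TPM untreated and 182, 212 and 313 TPM after treatment, lower at 6 and 12 h and slightly higher at 24 h. SLC11A2 (chr12:51373184-51422349, minus strand, hg19), whose product carries iron across the endosomal membrane, had 26.9 TPM in untreated NB4 and 36.7, 40.3 and 37.9 TPM after treatment. Its Kasumi-1 values were 52.4 TPM untreated and 37.6, 36.7 and 48.7 TPM after treatment. The treated NB4 libraries were thus all above, and the treated Kasumi-1 libraries all below, the untreated library of their line. Each direction rests on 1 untreated library, and the share of all genes with this pattern was not counted. At 24 h in Kasumi-1 the sign depends on scaling. The SLC11A2 change there was -0.10 on TPM and 0.04 after rescaling without mitochondrial and the most abundant genes.

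Neither gene passed a test. The fitted change of TFRC was 0.57 ± 0.28 in NB4 (limma adjusted p = 0.397) and -0.30 ± 0.28 in Kasumi-1 (adjusted p = 0.594), and that of SLC11A2 was 0.49 ± 0.20 in NB4 (adjusted p = 0.314) and -0.36 ± 0.20 in Kasumi-1 (adjusted p = 0.369). The difference between the responses, NB4 minus Kasumi-1, was 0.87 for TFRC (adjusted p = 0.493) and 0.85 ± 0.29 for SLC11A2 (adjusted p = 0.384). None of the 8 members tested was called for a different response, where 0.0887% of all genes were called higher and 0.0410% lower; before adjustment, 933 and 618 genes had a p under 0.05. Set against uptake, the ferritin pair had 29.8, 30.6 and 28.4 times the TPM of TFRC in treated and 20.0 times in untreated NB4, and 34.6, 34.8 and 20.2 times in treated and 8.95 times in untreated Kasumi-1.

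SLC11A1 (chr2:219246752-219261617, plus strand, hg19), the phagosomal metal transporter of macrophages, was barely detected. It had 0.668, 0.532, 0.542 and 0.711 TPM in NB4 cells and 0.104, 0.634, 0.274 and 0.171 TPM in Kasumi-1 cells (untreated, 6, 12 and 24 h). Mean coverage of the gene was 0.157 to 1.05 reads per base, so these values rest on few reads. It was left out by the filter on low values; with no filter its shared change was 0.11 and did not pass (limma adjusted p = 0.820).

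The exporter SLC40A1 (chr2:190425305-190448484, minus strand, hg19) was the least abundant member that was tested. It had 8.85 TPM in untreated NB4 and 3.03, 2.46 and 3.40 TPM after 6, 12 and 24 h. Kasumi-1 had 7.95 TPM untreated and 3.04, 4.85 and 7.30 TPM after treatment. Both lines were near 3 TPM at 6 h; NB4 stayed there, whereas the Kasumi-1 level at 24 h was 2.40 times that at 6 h and close to the untreated one. The fitted change was -1.32 ± 0.39 in NB4 (limma adjusted p = 0.188) and -0.62 ± 0.39 in Kasumi-1 (adjusted p = 0.412), and the difference between the lines was -0.70 (adjusted p = 0.703). At 24 h in Kasumi-1 the sign again depends on scaling (-0.11 on TPM, 0.02 rescaled). Coverage was 4.03 to 19.4 reads per base, the lowest of the tested members.

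A change of at least 2-fold at all 3 times was counted in each line, with no test. In NB4, FTH1 was higher and SLC40A1 lower by this rule, against 2.03% of all genes higher and 0.703% lower. In Kasumi-1, FTH1 and FTL were higher and no member lower, against 1.88% and 0.655% of all genes. SLC40A1 in NB4 missed the rule on log2(FPKM + 1), where adding 1 weighs more on its low values: its FPKM was 3.71 untreated and 1.24, 1.02 and 1.45 after treatment, each under 0.5 of the untreated value.

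**Figure D3:**
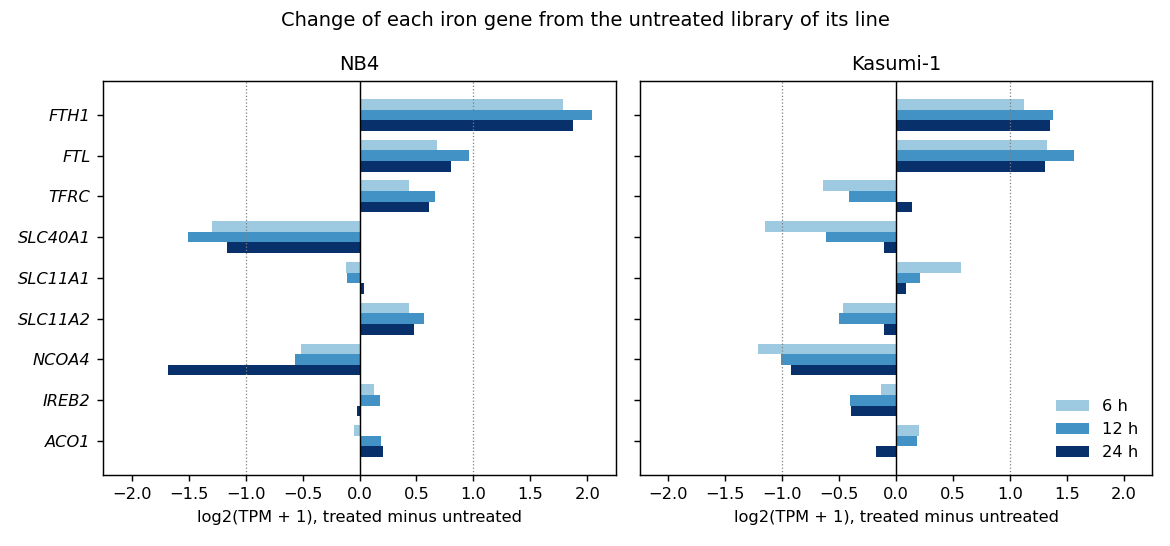
Difference of log2(TPM + 1) between each treated library and the untreated library of its line (horizontal bars, 6, 12 and 24 h from light to dark), for NB4 on the left and Kasumi-1 on the right, with dotted lines at 2-fold. FTH1 and FTL bars point to higher levels in both lines and NCOA4 and SLC40A1 bars to lower ones, while SLC11A2 bars point to opposite sides in the 2 lines.

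The transcripts of the sensors, IREB2 and ACO1, passed no test. IREB2 (chr15:78729773-78793798, plus strand, hg19), iron regulatory protein 2, which is degraded when iron is replete, had 75.8, 82.8, 86.0 and 74.6 TPM in NB4 cells and 80.7, 73.4, 60.8 and 61.2 TPM in Kasumi-1 cells (untreated, 6, 12 and 24 h). ACO1 (chr9:32384618-32454767, plus strand, hg19), which is the cytosolic aconitase with an iron-sulfur cluster and the RNA-binding IRP1 without it, had 12.7, 12.3, 14.6 and 14.8 TPM in NB4 cells and 16.4, 19.0, 18.8 and 14.4 TPM in Kasumi-1. Treated and untreated libraries of ACO1 overlapped in both lines, as did those of IREB2 in NB4, while in Kasumi-1 all treated IREB2 levels were below the untreated one. That rests on 1 untreated library, and how many of all genes do the same was not counted. The median change of all genes in Kasumi-1 was also below 0, at -0.01, -0.08 and -0.04 at 6, 12 and 24 h. Fitted changes within a line lay between -0.31 and 0.12 and none passed the test. Transcript levels do not show how much of either protein was in its RNA-binding state.

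In the fit of the response shared by both lines, none of the 8 members passed, against 0.0273% of all genes called higher and 0.0% lower. Before adjustment, 1363 higher and 1619 lower genes had a p under 0.05. FTH1 had the smallest adjusted p among the members, with a change of 1.59 ± 0.17 (limma adjusted p = 0.0607), followed by FTL with 1.11 ± 0.19 (adjusted p = 0.0799), NCOA4 with -0.98 ± 0.27 (adjusted p = 0.129) and SLC40A1 with -0.97 ± 0.27 (adjusted p = 0.133). TFRC, SLC11A2, IREB2 and ACO1 lay between -0.11 and 0.13. Leaving out the untreated Kasumi-1 library, which reduces the contrast to NB4, FTH1 passed (change 1.90, adjusted p = 0.0293), and treating the 3 times as repeats both ferritins passed (adjusted p = 0.0190 for FTH1 and 0.0403 for FTL). Other choices moved FTH1 away from the threshold, with an adjusted p of 0.213 without NB4 12 h, 0.183 without Kasumi-1 12 h, 0.219 with no filter and 0.9998 with no cell line term. The median over the 8 members was 0.28, 0.38 and 0.35 in NB4 at 6, 12 and 24 h and -0.30, -0.41 and -0.11 in Kasumi-1, where the median of all genes lay between -0.08 and 0.01.

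**Figure D4:**
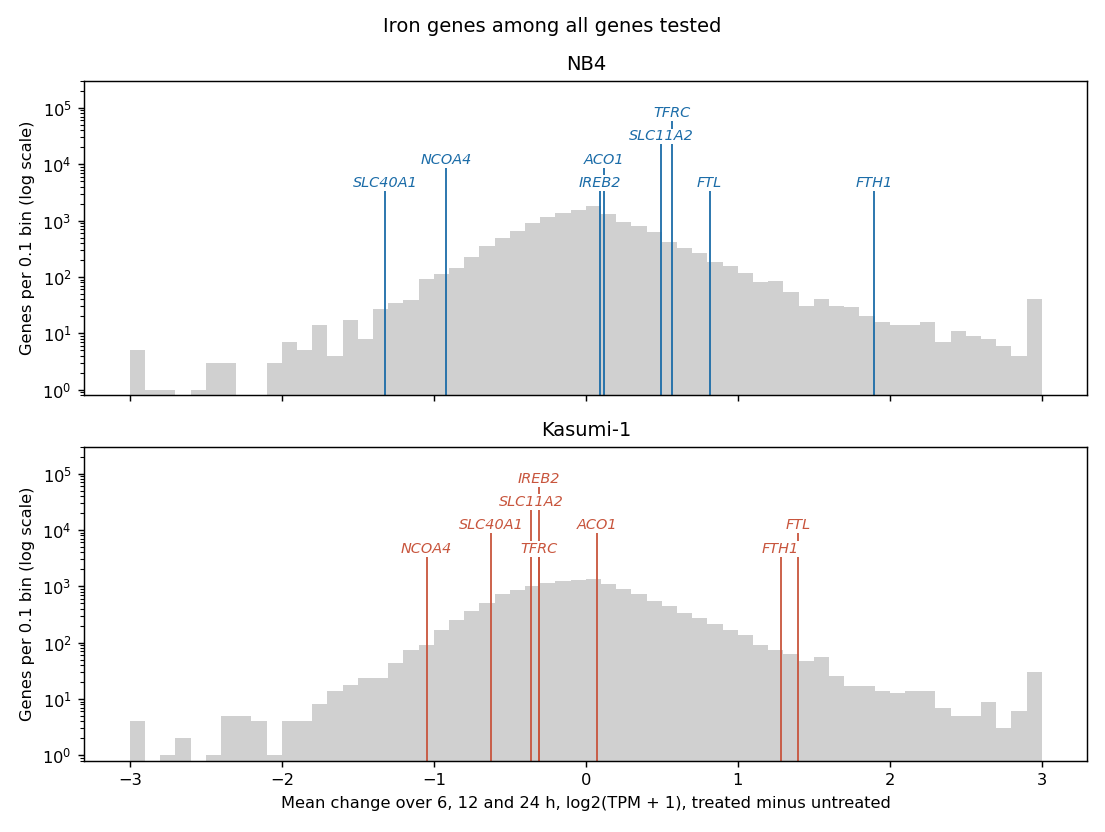
Number of tested genes (vertical log axis, bins of 0.1) by mean change over 6, 12 and 24 h in log2(TPM + 1), treated minus untreated, for NB4 above and Kasumi-1 below; the outermost bins also hold all larger changes, and lines mark the 8 tested iron genes. FTH1 at 1.90 in NB4 and FTH1 and FTL at 1.28 and 1.40 in Kasumi-1 lie in the upper tail. FTL in NB4 lies on the upper side at 0.81, and the other members lie in the body or the lower tail.

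The lines differed in FTH1 at every time. FTH1 in NB4 was 3.44 times its level in Kasumi-1 when both were untreated, and 5.42, 5.44 and 4.94 times at 6, 12 and 24 h. The additive fit gave 2.24 ± 0.15 for NB4 minus Kasumi-1 (limma adjusted p = 3.36e-05). This p-value measures how steady the gap was over the times, not the spread of cultures. FTH1 was the only one of the 8 members called, 1 higher and 0 lower in NB4, where 27.5% of all genes were called higher and 27.8% lower; the members' share is under that background. The same ratio was 1.14 for FTL untreated and 0.734 to 0.803 after treatment, 0.600 for TFRC untreated and 0.831 to 1.27 after treatment, and 0.513 for SLC11A2 untreated and 0.778 to 1.10 after treatment. For TFRC and SLC11A2 the gap between untreated lines was therefore wider than at any treated time.

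Since TPM is per length, members can be ordered within a library, but the order depends on the measure. By mean coverage, ACO1 was above SLC11A2 in every library (48.3 and 24.8 reads per base in untreated NB4). TFRC was above NCOA4 by coverage in untreated NB4 (290 and 278) and untreated Kasumi-1 (430 and 320). What follows is by TPM. FTL came first and SLC11A2, ACO1, SLC40A1 and SLC11A1 came in that order from sixth to last in all 8 libraries. FTH1 was second in each library except untreated Kasumi-1, where NCOA4 (291 TPM), TFRC (284 TPM) and FTH1 (218 TPM) followed FTL. NCOA4 was above TFRC in both untreated libraries and below it in all 6 treated ones, and in NB4 at 24 h it was also below IREB2. With 1 library per condition, neighbours in these orders cannot be separated by a spread between cultures.

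Genes averaging 5 TPM or more were ranked by how closely their levels ran with each member, after subtracting the mean of each line (Pearson's r over the 8 libraries, which share the 2 untreated libraries; a description of 10949 ranked genes). FTH1 was most like ZBTB34 (r = 0.991), its processed copy FTH1P2 (0.990) and the overlapping BEST1 (0.987), the last pair being genes that can share its reads. FTL was most like GBA2 (0.995), POLD4 (0.994) and RRAGC (0.987). GBA2 encodes a non-lysosomal glucosylceramidase, POLD4 a subunit of DNA polymerase delta and RRAGC a Rag GTPase that signals amino acid supply to mTORC1. The nearest to SLC40A1 were ADA (0.989), TMEM143 (0.988) and NT5M (0.984), and the nearest to NCOA4 were RDX (0.987), PHF17 (0.985) and SRPK1 (0.983).

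TFRC was most like USP49 (0.977), GAK (0.975) and TNFAIP8L1 (0.963), and SLC11A2 most like RP11-47A8.5 (0.983), H3F3AP4 (0.979) and RASSF2 (0.978). For IREB2 the list was MTHFD2L (0.983), SLC36A1 (0.970) and BEND3 (0.965), and for ACO1 it was TMEM54 (0.982), RPL10AP6 (0.954) and UGDH (0.951). Between members, r was 0.93 for TFRC with SLC11A2, 0.90 for FTH1 with FTL, and -0.81 for FTH1 with SLC40A1.

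Few genes of the wider iron pathway passed a test. Of 91 genes in 10 lists, 72 were tested and none passed in the shared fit or in the difference between lines; before adjustment, 8 were higher and 12 lower in the shared fit at p under 0.05, beside 1363 and 1619 of all 14650 genes. One gene passed in each line, both from the list of antioxidant and BACH1 regulators of ferritin transcription (6 genes tested, 1 higher and 0 lower in each line). Among all genes, 0.621% were called higher in NB4 and 0.205% in Kasumi-1. KEAP1, the adaptor that targets NRF2 for degradation, had 125 TPM in untreated NB4 and 244, 255 and 254 TPM after 6, 12 and 24 h, a change of 0.9997 ± 0.17 (limma adjusted p = 0.0492); in Kasumi-1 its change was 0.19 (adjusted p = 0.580). The KEAP1 call is close to the threshold and was lost without any one NB4 time or without the Kasumi-1 12 h or 24 h library, each of which left 0 listed genes called in NB4. MAFG, a small MAF protein that pairs with NRF2 or BACH1, had 30.3 TPM in untreated NB4 and 70.7, 75.6 and 65.1 TPM after treatment (change 1.19, limma adjusted p = 0.0629). In Kasumi-1 it had 21.2 TPM untreated and 71.8, 51.4 and 58.5 TPM after treatment, a change of 1.46 ± 0.21 (adjusted p = 0.0473), and this call too was lost, with 0 listed genes left, without any one NB4 treated library or the Kasumi-1 6 h or 12 h library.

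The other lists gave no call, and values follow for the genes a fixed rule picked. HMOX1, haem oxygenase 1, which frees iron from haem, had 0.280, 2.52, 3.26 and 3.71 TPM in NB4 cells and 2.66, 15.2, 10.9 and 33.8 TPM in Kasumi-1 cells (untreated, 6, 12 and 24 h), above untreated in all 6 treated libraries, with a shared change of 2.03 ± 0.31 (limma adjusted p = 0.0748). In the list of mitochondrial iron import and iron-sulfur assembly (22 genes tested, none called), the median shared change was -0.27 beside -0.03 for all genes. NFS1, the cysteine desulfurase that supplies sulfur to the clusters, had 28.0, 16.7, 21.9 and 12.4 TPM in NB4 cells and 19.8, 7.47, 10.5 and 10.7 TPM in Kasumi-1 (shared change -0.86, adjusted p = 0.119).

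The haem synthesis list (8 tested, none called) had a median of -0.39. FECH, ferrochelatase, which inserts iron into protoporphyrin, had 12.2, 6.38, 11.2 and 9.56 TPM in NB4 cells and 39.3, 19.8, 17.4 and 23.7 TPM in Kasumi-1 (shared change -0.68, adjusted p = 0.171, limma). All treated FECH levels were below the untreated one of their line. None of the 7 genes of iron export and the hepcidin axis averaged 1 TPM, so SLC40A1 was the one export gene tested. The list of other transcripts with an iron-responsive element had 4 tested genes, none of them called.

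Of the remaining lists, the iron chaperones PCBP1 and PCBP2 were abundant (362 to 553 TPM and 692 to 1157 TPM) and their changes had opposite signs in the lines, at 0.22 in NB4 and -0.14 in Kasumi-1 for PCBP1 and -0.38 in NB4 and 0.40 in Kasumi-1 for PCBP2. The PCBP2 difference between the lines was -0.78 (limma adjusted p = 0.354). TFR2, the second transferrin receptor, was at 0.121 to 0.841 TPM in NB4 cells and at 6.83, 4.69, 5.17 and 1.68 TPM in Kasumi-1. CHAC1, a glutathione-degrading enzyme, had at most 0.341 TPM in NB4 cells and 37.2, 26.2, 17.9 and 8.94 TPM in Kasumi-1. It is from the list of lipid peroxide defence and ferroptosis (10 tested, none called). The list of controls of the iron regulatory proteins and of NCOA4 (6 tested, none called) held CIAPIN1, a cytosolic iron-sulfur assembly factor, with a shared change of -0.26 (limma adjusted p = 0.312). In the list of haem breakdown and transport (8 tested, none called), the haem transporter SLC48A1 had a shared change of 0.49 (adjusted p = 0.161). Among 6 tested genes of the transferrin cycle and other uptake, none called, the endolysosomal cation channel MCOLN1 had one of 0.33 (adjusted p = 0.282). In bulk RNA such as this, fewer cells carrying a transcript and less of it per cell cannot be told apart.

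The upstream regions of FTL and TFRC are shown because the letters ACGTG were found in both. RefSeq promoters (GRCh38.p14) were matched by symbol for 8 of the 9 members, 13 promoters in all. The member without a promoter was FTH1, so the counts below do not cover it. In the 250 bases before each start, both strands, TGACNNNGC (the core of the antioxidant response element) was in 10.9% of 35116 promoters and in 0 of the 13, and CACGTG was in 6.34% and in 0. ACGTG, which CACGTG contains, was in 18.5% of all and in 2 of the 13, those of FTL and TFRC. CCAAT was in 32.0% of all and in 5 of the 13, which belong to FTL and SLC11A2. The counts for ACGTG and CCAAT are near the share of all promoters. With 13 promoters, a count of 0 does not set the members apart from that share. Sites farther upstream were not searched. The capitals mark ACGTG and CCAAT or their reverse complements, and a match is a description of letters, not a bound site.
FTL, chr19:48965059-48965308, plus strand: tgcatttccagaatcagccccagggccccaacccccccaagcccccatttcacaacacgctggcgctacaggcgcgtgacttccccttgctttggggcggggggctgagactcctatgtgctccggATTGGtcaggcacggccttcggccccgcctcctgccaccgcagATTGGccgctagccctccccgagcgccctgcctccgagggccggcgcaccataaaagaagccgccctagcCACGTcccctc
TFRC, chr3:196082091-196082340, minus strand: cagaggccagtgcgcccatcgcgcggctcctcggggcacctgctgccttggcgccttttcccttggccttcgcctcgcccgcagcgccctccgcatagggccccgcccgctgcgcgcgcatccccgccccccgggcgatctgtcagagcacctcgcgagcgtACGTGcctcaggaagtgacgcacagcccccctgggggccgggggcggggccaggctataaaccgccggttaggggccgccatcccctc
The matched genes did not share a course: FTL was higher in all 6 treated libraries, TFRC in 4 of them and SLC11A2 in 3.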

How the data were processed

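RNA of 8 libraries (2 lines, untreated and 6, 12 and 24 h with 40 uM chlorprothixene) was analysed from the deposited gene tables, with groups read from the sample titles. HISAT2, StringTie and the build hg19 are named by the submitters' processing notes, and their versions, the annotation and the strand setting are not given in the sources. Per the file headers, the deposited tables give TPM (length-scaled, one total per library), FPKM (scaled by length and depth) and coverage (mean read coverage, a signal used here only for depth). These are not counts, so no count test was run.

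IDs sharing a name were summed (57820 IDs, 55765 names). Genes averaging 1 TPM or more were tested on log2(TPM + 1), which understates changes of low genes, with limma 3.58.1 in R 4.3.3 (trended eBayes, two-sided, Benjamini-Hochberg over all genes, threshold 0.05). The shared response and line difference came from an additive model of line and time, and responses within a line and their difference from line by treatment with times as repeats. The code was tested on simulated data. Summaries used pandas 2.3.3 and numpy 2.4.6 under Python 3.11.15; matplotlib 3.10.9 drew the plots. The 3 most alike genes per member and up to 2 genes per pathway list with the largest mean change were named by rule; KEAP1 was added because it passed the test. Some genes picked this way are not reported here. Members and lists were chosen with earlier results of these data known. Alternatives were the pseudocount, the filter, FPKM, rescalings, the handling of shared names and copies, the model terms and leaving out each library.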

Additional observations from a re-analysis of the deposited data

Results flagged for a closer look

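SLC11A2 moved in opposite directions in the 2 lines: all 3 treated NB4 libraries were above the untreated one (36.7, 40.3 and 37.9 TPM in treated and 26.9 TPM in untreated NB4) and all 3 treated Kasumi-1 libraries below it (37.6, 36.7 and 48.7 TPM in treated and 52.4 TPM in untreated Kasumi-1). The difference between the responses was 0.8516 on the log2 scale, and the limma test of it did not pass (adjusted p = 0.384). The Kasumi-1 change at 24 h turned positive after rescaling without mitochondrial and the most abundant genes. Each direction rests on 1 untreated library, and the share of all genes with this pattern was not counted. SLC11A2 in NB4 was 0.513 times its Kasumi-1 level in untreated cells. The ratio was 0.974, 1.10 and 0.778 at 6, 12 and 24 h.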

How the results depend on the processing

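No analysis paired by replicate was possible because each condition has 1 library; the additive model sets the lines against each other within each time. Over all alternatives for single members, 624 kept direction and side of the threshold, 14 reversed, 8 newly passed and 5 no longer passed. FTH1 passed in NB4 under 15 of 15 alternatives (adjusted p 0.00686 to 0.0478), in Kasumi-1 under 10 of 15 (0.0356 to 0.172) and between lines under 18 of 18 (limma). The count of members called in the shared response, 0 as reported, was 1 with a filter at a mean of 5 TPM (FTH1), 1 with rescaled TPM (FTH1; FTL is removed there by construction), 2 with times as repeats (FTH1 and FTL), and 0 to 1 when a library was left out. In Kasumi-1 the count of 1 became 2 (FTH1 and FTL) with a pseudocount of 5 and on FPKM, and ranged from 0 to 2 when a library was left out. The number at least 2-fold changed at all times, 2 in each line, was 1 on FPKM in NB4 (SLC40A1 lost) and 1 with rescaled TPM in Kasumi-1 (FTL removed by construction). The cause of the other shifts was not tested.

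Reversals were all in changes that passed no test. With a library left out, the shared change ranged from -0.30 to 0.57 for TFRC, -0.36 to 0.49 for SLC11A2 and -0.31 to 0.094 for IREB2. Both ends of these ranges came from leaving out the untreated library of 1 line, which reduces the contrast to the response of the other line. The response difference ranged from -0.077 to 0.51 for NCOA4 and -0.075 to 0.13 for ACO1, and the line difference from -0.22 to 0.14 for TFRC and -0.45 to 0.035 for NCOA4. The ACO1 response difference was -0.0097 on FPKM, -0.017 with rescaled TPM and -0.033 after shifting each library to a median difference of 0. A response within a line has no value without that line's untreated library. With 3 or 4 residual degrees of freedom, calls near the threshold depend on single libraries, and SLC11A1 and SLC40A1 rest on low coverage.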
